A study of Mus musculus with 2 samples.

Results

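Mural cells are the cells that wrap blood vessels from outside: pericytes along capillaries and venules, and smooth muscle cells around arterioles, arteries and veins. Mural nuclei were chosen by their measured UMIs in single-nucleus RNA sequencing of mouse quadriceps. A nucleus was taken as mural when it held at least 2 unique molecular identifiers (UMIs, each standing for 1 captured RNA molecule) summed over 7 genes, Notch3, Rgs5, Myh11, Kcnj8, Cspg4, Higd1b and Lmod1. That sum also had to exceed the sum over 7 genes of other stromal, immune and endothelial cells, Pdgfra, Dcn, Fbn1, Mrc1, F13a1, Pecam1 and Cdh5. Of 18040 nuclei with at least 200 detected genes, 150 met this rule (0.832%), 50 of 10274 in the wild-type (WT) library and 100 of 7766 in the knockout library.

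The study set the quadriceps of WT C57BL/6N mice against that of C57BL/6N mice with a knockout of Ptrf, all aged 3 months. Ptrf is now named Cavin1 and encodes cavin-1, a coat protein without which caveolae, the small flask-shaped invaginations of the plasma membrane, do not form. Each genotype gave 1 library of nuclei, made with a 10x Genomics droplet kit that reads the 3' ends of transcripts. How many mice went into a library, their sex, and which piece of the gene was removed were not stated in any source at hand.

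With 1 library per genotype no difference between genotypes could be tested, and all values describe these 2 libraries. The intervals are exact 95% intervals that cover counting error only, and UMIs of 1 nucleus are not independent of each other. The WT file held 10280 barcodes and 9746980 UMIs and the knockout file 7766 barcodes and 16052317 UMIs, with medians of 703 and 1562 UMIs per nucleus. Cavin1 itself had 75 UMIs in the WT and 2 in the knockout library, none of them in a mural nucleus. Xist, which silences an X chromosome in female cells, was counted 4 times in WT and 4358 times in the knockout library, so that the knockout library also held nuclei of female mice. Among the mural nuclei of the knockout library, 29 carried Xist alone, 20 carried Y-linked transcripts alone, 3 carried both and 48 neither, while in WT 12 carried Y-linked transcripts and none Xist. Genotype, sex and library cannot be told apart where they differ together. The libraries shared 24 barcodes, of which 1 was a mural nucleus of the knockout and none a mural nucleus of WT.

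Smooth muscle cells set the width of a vessel through actin and smooth muscle myosin. Calcium that enters through voltage-gated channels drives myosin light chain kinase, and cyclic GMP, made in response to nitric oxide, relaxes the cell through its kinase. Pericytes share much of this machinery but carry little smooth muscle myosin, and they are marked in many tissues by the potassium channel subunits Kcnj8 and Abcc9, by Rgs5 and by the receptor Pdgfrb. Both cell types depend on Notch3 and Pdgfrb signals from the endothelium, and their plasma membrane is rich in caveolae.

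The 7 genes that chose the nuclei are given as a description. Notch3, a Notch receptor of mural cells, had 51 UMIs in 30 of 50 WT mural nuclei and 140 UMIs in 60 of 100 knockout mural nuclei. Rgs5, a regulator of G protein signalling that marks pericytes, had 24 UMIs in 19 WT nuclei and 102 UMIs in 49 knockout nuclei. Myh11, the heavy chain of smooth muscle myosin, had 86 UMIs in 24 WT nuclei and 64 UMIs in 28 knockout nuclei. Lmod1, a leiomodin that nucleates actin filaments in smooth muscle, had 27 UMIs in 15 WT and 41 UMIs in 22 knockout nuclei. Cspg4, the NG2 proteoglycan, had 19 UMIs in 12 WT and 53 UMIs in 31 knockout nuclei. Kcnj8 had 0 UMIs in WT and 11 UMIs in 9 knockout nuclei, and Higd1b, a mitochondrial protein often used as a pericyte marker, had 0 in both. Of nuclei led by the opposing genes, 212 in WT and 605 in the knockout, 3.77 and 1.82% held a Notch3 UMI, 0.943 and 0.496% an Rgs5 UMI and 0.472 and 0.165% a Myh11 UMI, at medians of 701 and 1065 UMIs per nucleus. In the genome build GRCm38, Rgs5 lies at chr1:169655501-169695813 and Lmod1 on the same chromosome at chr1:135324807-135368065, Myh11 at chr16:14194535-14291372, and Kcnj8 at chr6:142564837-142571614. Abcc9, whose protein joins that of Kcnj8 in a potassium channel, is at chr6:142587862-142702315, on the same strand as Kcnj8.

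The rule was met narrowly by many nuclei. Of the members, 24 in WT and 38 in the knockout had exactly 2 UMIs over the 7 genes, 11 and 20 had 3, and 15 and 42 had 4 or more. Just outside it, 320 WT and 227 knockout nuclei held 1 such UMI, and 0 WT and 8 knockout nuclei held 2 or more but at least as many UMIs of the opposing genes. Mural nuclei had a median of 719 UMIs in WT and 1372 in the knockout, and their summed UMIs were 64306 and 209600.

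Transcripts that the rule did not use set the members apart from the remaining nuclei in both libraries. Levels are counts per 1e6 summed UMIs of a set of nuclei (CPM). Acta2, smooth muscle actin, stood at 513 CPM in WT mural nuclei and 2.58 CPM in all other WT nuclei, and at 119 against 0.757 CPM in the knockout. Cacna1c, the pore of the L-type calcium channel, stood at 1679 against 47.6 CPM in WT, and at 1861 against 19.2 CPM in the knockout. The genes that ranked highest by this ratio in both libraries also included Cacnb2, a beta subunit of the same channel; Gucy1a1, a subunit of the nitric oxide receptor guanylyl cyclase; and Irag1, a substrate of the cyclic GMP kinase. Pde3a, Dgkb, Il34, Cald1, Slc38a11 and Olfr78 ranked among them too. Of 2691 genes with at least 20 UMIs in mural nuclei over both libraries, 24.5% stood at least 2-fold higher in mural than in other nuclei in WT and 20.3% in the knockout. Of 9 further pericyte genes with that many UMIs, all 9 did so in both libraries, with Pdgfrb at 358 against 13.3 CPM in WT, and at 262 against 5.74 CPM in the knockout. Of 16 contractile genes, 9 did so in each library. Vtn, a pericyte marker, had 0 UMIs in WT and 7 in the knockout, and Tagln, Cnn1, Smtn, Pln and Kcnmb1, familiar smooth muscle markers, had at most 6 UMIs in either library.

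**Figure D1:**
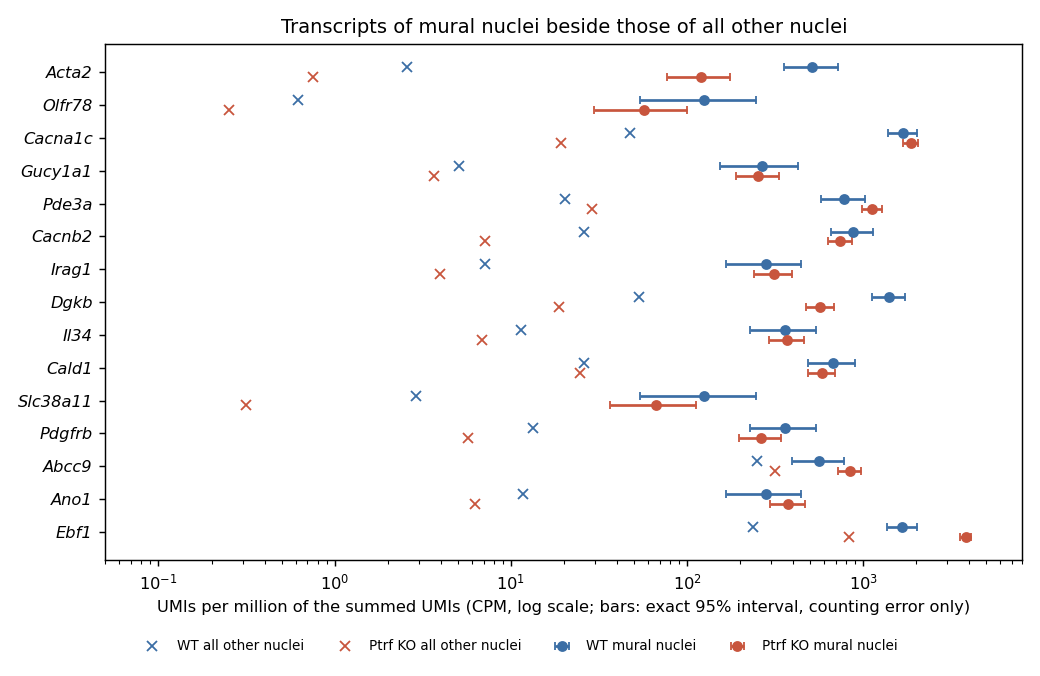
Levels (CPM, log axis) of 15 genes outside the selection rule in mural nuclei (circles, with exact 95% counting intervals) and in all other nuclei (crosses) of the WT (blue) and knockout (red) libraries. In every row the mural level lies above that of the other nuclei of the same library, with Acta2 at 513 against 2.58 CPM in WT.

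RNA from muscle fibres was present in the mural nuclei as in all others. Ttn, which encodes the sarcomeric protein titin, stood at 37073 CPM in WT against 20940 CPM in knockout mural nuclei, and at 68436 and 41434 CPM in the other nuclei. The summed level of 11 myonuclear markers was 54303 CPM in WT against 31412 CPM in knockout mural nuclei, beside 95101 and 63768 CPM in the other nuclei. It was therefore lower in the knockout library inside and outside the mural nuclei. The 10 endothelial markers summed to 8 UMIs in WT and 38 in knockout mural nuclei, 124 and 181 CPM beside 138 and 162 CPM in the other nuclei, with 4 of them at 0 in WT and 2 in the knockout. The 7 opposing genes had 10 and 24 UMIs, with Pecam1 at 0 in both. The part of these transcripts in the results below was not tested.

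Some members did not carry the pattern that the name mural implies. Of the knockout mural nuclei 16, and of the WT mural nuclei 2, held at least 2 UMIs summed over Adipoq, Plin1, Cidec and Fasn, genes of fat cells, and are called adipocyte-transcript nuclei here. This set was defined after the values were seen. They gave 29.4% of all UMIs of knockout mural nuclei and 8.47% in WT. Of the knockout ones 13 had entered by Cspg4 alone, out of 17 that did so, and 12 carried Xist alone. They held 0 UMIs of Rgs5, Kcnj8, Myh11 and Lmod1 together in 13 of 16 nuclei. The whole list of 9 adipocyte markers summed to 995 CPM in WT against 5086 CPM in knockout mural nuclei, and to 425 and 1027 CPM without these nuclei, while the other nuclei stood at 723 and 2447 CPM. Results below are given with and without them.

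A single WT nucleus of 3088 UMIs also weighed heavily. It held 50 of the 113 WT smooth muscle UMIs (44.2%), 43 of Myh11 and 7 of Lmod1, where the next WT nucleus held 7 and the richest knockout nucleus 14. It also held 13 Acta2, 18 Mylk, 15 Flna, 22 Synpo2 and 30 Dgkb UMIs, no Rgs5 and 5 Ttn UMIs.

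**Figure D2:**
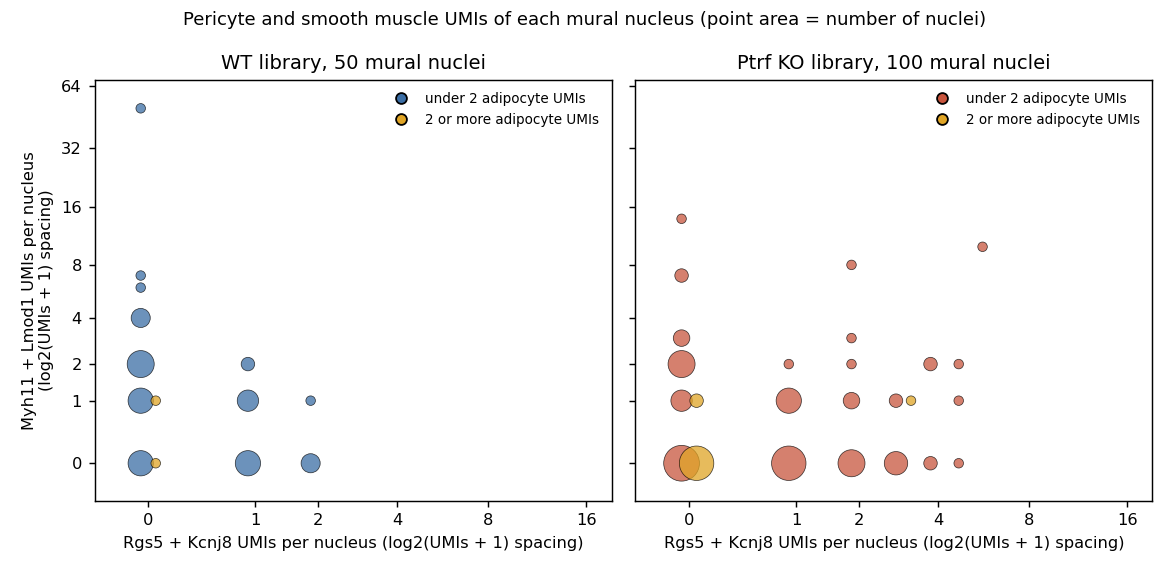
Rgs5 plus Kcnj8 UMIs (x axis) and Myh11 plus Lmod1 UMIs (y axis) of each mural nucleus, both axes spaced as log2(UMIs + 1), with point area proportional to the number of nuclei; gold points, set slightly to the right, are nuclei with at least 2 adipocyte UMIs. The WT library (left) has 1 nucleus at 50 smooth muscle UMIs and the others at 7 or fewer, while the knockout library (right) spreads further along the pericyte axis.

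Mural nuclei were a larger share of the knockout library. The share was 0.487% (exact interval 0.361 to 0.641%) in WT against 1.29% (1.05 to 1.56%) in the knockout, a ratio of 2.65. This was not particular to mural nuclei, since nuclei led by the opposing genes were 2.06% in WT against 7.79% in the knockout. Since the rule needs 2 UMIs and knockout nuclei held more UMIs, every nucleus was thinned to 500 UMIs, for which 2055 WT nuclei and 11 of the WT members were too shallow. The mural share was then 0.292% in WT (24 of 8219 nuclei) and 0.683% in the knockout (53 of 7766), a ratio of 2.34. The share of thinned nuclei with 1 or more UMIs of the 7 genes was 2.20% in WT and 2.13% in the knockout. The ratio of mural shares was 2.32 without the adipocyte-transcript nuclei, 1.69 among nuclei with at least 500 detected genes, and 1.46 (0.680 to 3.28) among nuclei with Y-linked and no Xist transcripts, where 12 WT and 20 knockout members remained. A share of nuclei does not give a number of cells per muscle, since all other nuclei of a library enter its denominator.

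**Figure D3:**
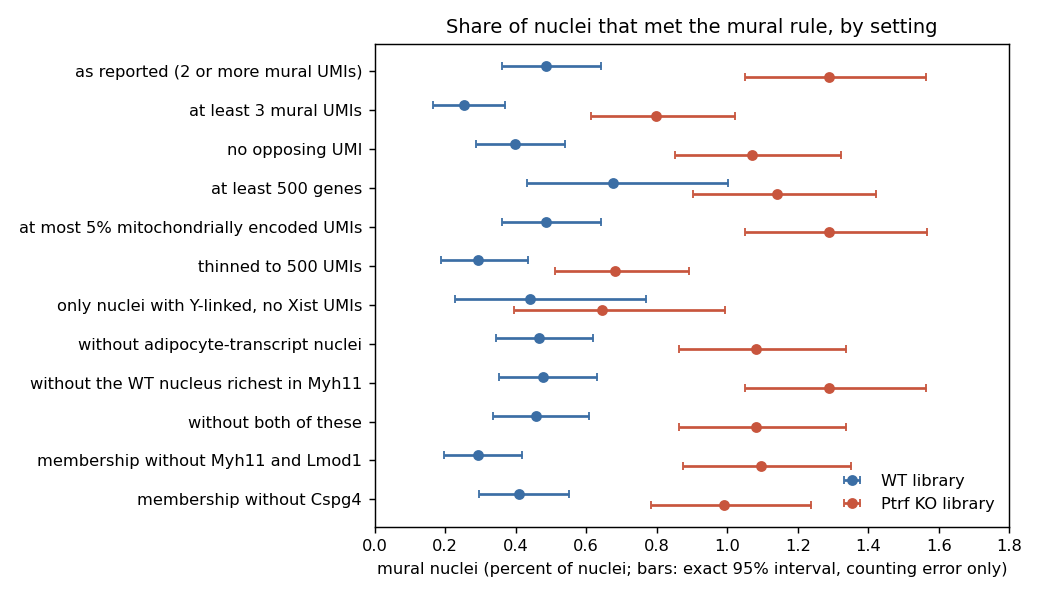
Percent of nuclei that met the mural rule in the WT (blue) and knockout (red) libraries under the rule as reported and 11 other settings, with exact 95% counting intervals. The knockout point lies to the right of the WT point in every row, and the intervals overlap in the rows for at least 500 genes (0.675 and 1.14%) and for nuclei with Y-linked and no Xist transcripts (0.441 and 0.645%).

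The make-up of the mural nuclei differed as well. Nuclei with more smooth muscle than pericyte UMIs (smooth-muscle-led) were 25 of 50 in WT (50%, 35.5 to 64.5%) and 25 of 100 in the knockout (25%, 16.9 to 34.7%). Pericyte-led nuclei were 12 of 50 in WT (24%, 13.1 to 38.2%) and 40 of 100 in the knockout (40%, 30.3 to 50.3%). Equal numbers were held by 5 and 8 nuclei, and neither kind of UMI by 8 and 27, of which 1 and 13 were adipocyte-transcript nuclei. These genes are part of the rule, so the counts describe the members and support nothing further.

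**Figure D4:**
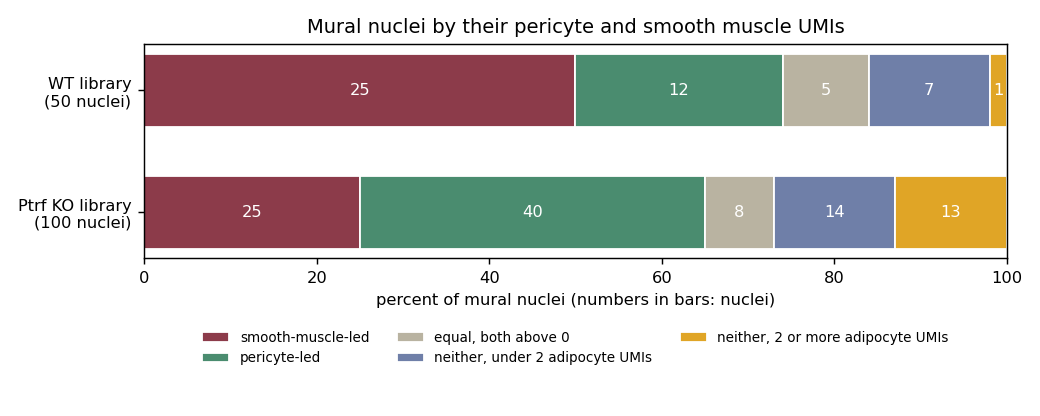
Percent of mural nuclei in each class, with the number of nuclei written in the bars, for the WT and knockout libraries. Smooth-muscle-led nuclei make up 25 of 50 in WT and 25 of 100 in the knockout, and pericyte-led nuclei 12 and 40.

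Summed over the members, smooth muscle transcripts were lower in the knockout library and pericyte transcripts were not. Myh11 and Lmod1 together stood at 1757 CPM (1448 to 2113) in WT against 501 CPM (410 to 606) in knockout mural nuclei, a log2 ratio of knockout to WT of -1.81 (-2.21 to -1.41). Rgs5 and Kcnj8 together stood at 373 CPM (239 to 555) and 539 CPM (444 to 648), a log2 ratio of 0.51 (-0.12 to 1.23). Smooth muscle UMIs were 82.5% (75.1 to 88.4%) of the smooth muscle and pericyte UMIs together in WT and 48.2% (41.4 to 55.0%) in the knockout.

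The size of the smooth muscle difference rested on few nuclei. Without the WT nucleus rich in Myh11 the log2 ratio was -1.04 (-1.503 to -0.56), and without that nucleus and the adipocyte-transcript nuclei it was -0.70 (-1.16 to -0.21). Within smooth-muscle-led nuclei the level was 2627 CPM in WT against 1082 CPM in the knockout, but 1514 against 1082 CPM without that nucleus, a log2 ratio of -0.49 (-0.99 to 0.03). In pericyte-led nuclei the Rgs5 and Kcnj8 level was 1560 CPM in WT against 1592 CPM in the knockout, a log2 ratio of -0.01 (-0.73 to 0.87). These genes chose the classes, so both levels are descriptions. The smooth muscle share kept its direction without that nucleus, at 72.4% (61.8 to 81.5%) in WT against 48.2%.

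Sums over whole libraries include the members. Over the whole libraries Myh11 and Lmod1 had 279 UMIs in WT (28.6 CPM) and 140 in the knockout (8.72 CPM), and Rgs5 and Kcnj8 had 63 (6.47 CPM) and 136 (8.47 CPM). Of the smooth muscle UMIs 166 in WT and 35 in the knockout lay outside the members (17.1 and 2.21 CPM, log2 ratio -2.94, -3.53 to -2.42), and of the pericyte UMIs 39 and 23 (4.03 and 1.45 CPM, -1.46, -2.28 to -0.69). Outside the members, then, both kinds of transcript were lower in the knockout library. These are UMIs that the rule left out. Of the WT nuclei outside the members, 320 held 1 UMI of the 7 genes and 0 held more, and in the knockout 227 held 1 and 8 held 2 or more. WT nuclei were also shallower, at medians of 703 against 1562 UMIs. These ratios therefore describe what the rule left, and the part of depth in them was not tested. The smooth muscle share over whole libraries was 81.6% (77.1 to 85.5%) in WT against 50.7% (44.7 to 56.8%) in the knockout.

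Over all genes, those of the rule included, 2691 had at least 20 UMIs over both libraries. Among them, 476 (17.7%) stood at least 2-fold higher and 142 (5.28%) at least 2-fold lower in knockout than in WT mural nuclei, with a median log2 ratio of 0.19. Scaled by the median of ratios in place of the summed UMIs, the counts were 327 and 261 and the median was -0.06, so small ratios are read against that shift. Without the adipocyte-transcript nuclei 311 of 2026 genes (15.4%) were at least 2-fold higher and 95 (4.69%) at least 2-fold lower. In all other nuclei the median over the 2691 genes was 0.33. A gene with a low sum in WT passes the filter on UMIs mainly through the knockout, whose mural nuclei held more UMIs.

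Of 30 contractile genes of smooth muscle, 16 were measured, and 8 of these stood at least 2-fold lower and 1 at least 2-fold higher in the knockout, beside 5.28% and 17.7% of all genes. Their median log2 ratio was -0.96 in mural nuclei and -0.01 in the other nuclei. Acta2 was at 513 and 119 CPM (log2 ratio -2.10, -2.92 to -1.31), from 33 UMIs in 10 WT and 25 UMIs in 10 knockout nuclei. Flna, filamin A, an actin cross-linker, was at 513 and 100.2 CPM (-2.34, -3.22 to -1.52). Mylk, the myosin light chain kinase, was at 513 and 200.4 CPM (-1.36, -2.05 to -0.65), and Synpo2, an actin-binding protein, at 638 and 248 CPM. Tpm1 and Tpm2, tropomyosins that skeletal fibres also express, were at log2 ratios of -1.43 and -1.47, beside -0.55 and -1.36 in the other nuclei.

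Much of this list rested on the same WT nucleus. Without it and the adipocyte-transcript nuclei, 3 of 16 contractile genes were at least 2-fold lower and 1 at least 2-fold higher, and the median was -0.04. Of all 1985 genes measured in that set, 87 were at least 2-fold lower and 310 at least 2-fold higher, with a median of 0.18. Acta2 then had a log2 ratio of -1.02 (-1.93 to -0.07), Flna -0.94 (-1.95 to 0.14), Mylk -0.02 (-0.88 to 0.97) and Synpo2 -0.06 (-0.83 to 0.81). Cald1, caldesmon, which binds actin and myosin, was close to level, at 669 CPM (43 UMIs) in WT against 582 CPM (122 UMIs) in the knockout. Vcl, vinculin, which anchors actin at adhesion sites, was the member that stood higher, at 140 CPM (9 UMIs in 8 nuclei) and 429 CPM (90 UMIs in 46 nuclei), a log2 ratio of 1.55 (0.63 to 2.79) that was 1.72 without those nuclei and 1.08 in the other nuclei. Myocd, the coactivator that turns on smooth muscle genes, fell below the 20-UMI filter with 11 UMIs in 7 WT nuclei and 5 UMIs in 2 knockout nuclei. Smooth-muscle-led nuclei were a larger part of the WT members, and how much of the contractile ratios goes with that was not tested. Within smooth-muscle-led nuclei, without the WT nucleus rich in Myh11, Acta2 was at -0.517 (-1.486 to 0.515) and Flna at -1.68 (-3.01 to -0.48).

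**Figure D5:**
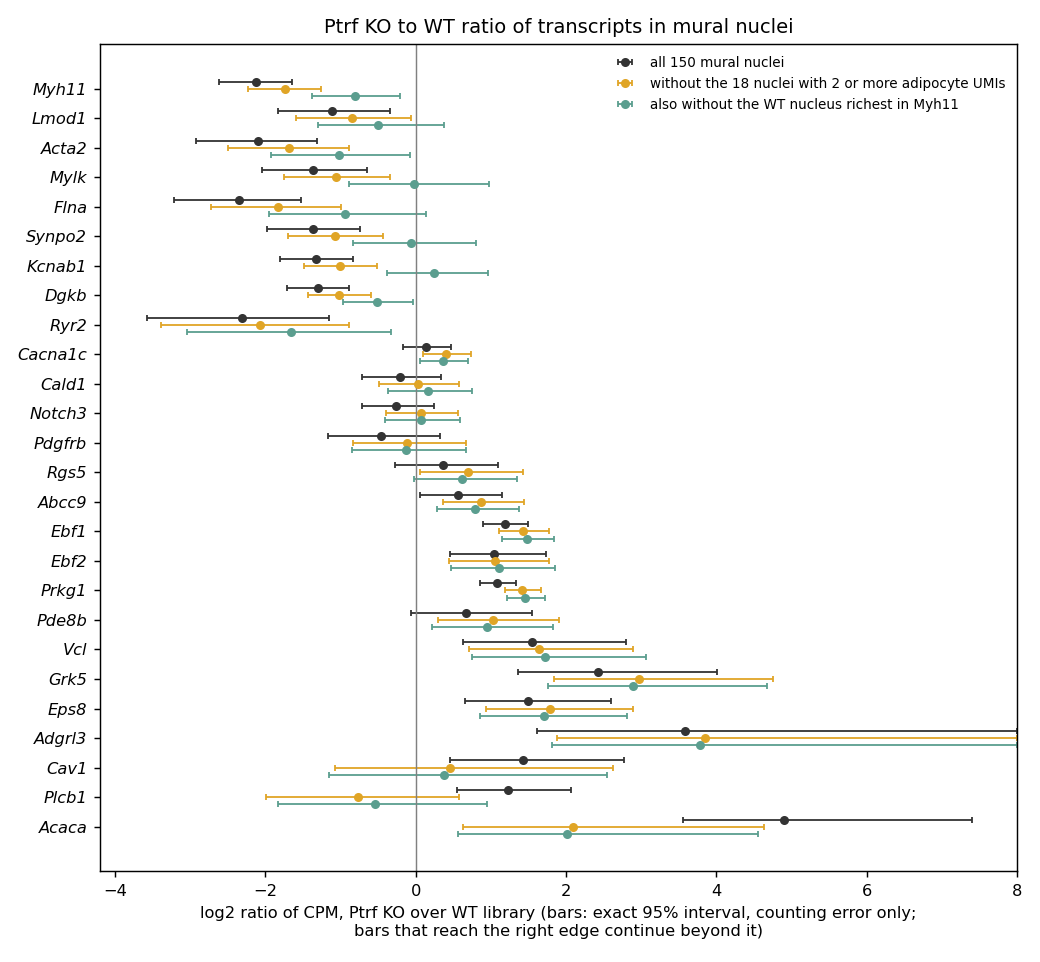
Log2 ratio of CPM in knockout over WT mural nuclei for 26 genes, with exact 95% counting intervals, for all members (black), without the 18 adipocyte-transcript nuclei (gold) and also without the WT nucleus richest in Myh11 (green). Mylk moves from -1.36 to -0.02 and Acaca from 4.90 to 2.01, while Ebf1, Prkg1, Grk5 and Adgrl3 stay above 1 in all 3 sets.

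Of 18 further pericyte genes 9 were measured, and 4 stood at least 2-fold higher and none at least 2-fold lower in the knockout, beside 17.7% and 5.28% of all genes. Their median log2 ratio was 0.57 in mural nuclei, 0.34 in the other nuclei, and 0.83 in mural nuclei without the WT nucleus and the adipocyte-transcript nuclei. Abcc9 was at 560 CPM in WT (36 UMIs in 19 nuclei) and 840 CPM in the knockout (176 UMIs in 64 nuclei), a log2 ratio of 0.57 (0.06 to 1.15). Ebf1, a transcription factor of mural and adipose lineages, was at 1664 and 3807 CPM (1.19, 0.90 to 1.499), and at 1.42 without the adipocyte-transcript nuclei, but it was also higher in the other nuclei, at 1.81. Ebf2 was at 389 and 811 CPM, with 1.16 in the other nuclei. Steap4, a metalloreductase, was at 46.7 CPM (3 UMIs) and 186 CPM (39 UMIs in 23 nuclei). Pdgfrb was at 358 CPM (23 UMIs in 15 nuclei) and 262 CPM (55 UMIs in 39 nuclei), and its interval of -1.17 to 0.32 spans equal levels.

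Genes of vessel tone gave the largest list, with 32 of 53 measured. At least 2-fold higher in the knockout were 9 and at least 2-fold lower 2, beside 17.7% and 5.28% of all genes, with a median log2 ratio of 0.46 in mural nuclei and 0.43 in the other nuclei. Prkg1, the cyclic GMP-dependent kinase, was at 2550 CPM (164 UMIs in 39 of 50 nuclei) in WT against 5429 CPM (1138 UMIs in 83 of 100 nuclei) in the knockout, a log2 ratio of 1.09 (0.85 to 1.34), beside 0.75 in the other nuclei and 1.46 without the WT nucleus and the adipocyte-transcript nuclei. Its partners in the same pathway stood closer to equal: Gucy1a1 was at 264 and 253 CPM, Gucy1a2 at 575 and 463 CPM, and Irag1, which the kinase phosphorylates, at 280 and 310 CPM. Pde8b, a phosphodiesterase of cyclic AMP, was at 264 and 429 CPM, while it was lower in the other nuclei of the knockout (log2 ratio -1.37).

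Receptors for constrictors had few UMIs. Ednrb, an endothelin receptor, had 0 UMIs in the 50 WT nuclei and 28 UMIs in 17 of the 100 knockout nuclei. With WT set to a floor of 3 UMIs over the group, the knockout stood 2.86-fold higher, while the exact interval of the fold began at 2.18. A count of 0 in 50 nuclei has an exact upper limit of 7.11% of nuclei with a UMI, and nuclei led by the opposing genes showed Ednrb in 3.30% in WT and 2.81% in the knockout. Agtr1a, the angiotensin receptor, had 3 and 27 UMIs (log2 ratio 1.27, -0.24 to 3.83). Ednra, the main endothelin receptor of smooth muscle, had 8 and 20 UMIs (-0.44, -1.63 to 1.01). Adra1a, an adrenergic receptor, had 2 and 53 UMIs, but 31 of the 53 lay in adipocyte-transcript nuclei.

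Among 20 measured channels and pumps, 1 stood at least 2-fold higher and 3 at least 2-fold lower, beside 17.7% and 5.28% of all genes, and the median was 0.26. The L-type channel was close to level, with Cacna1c at a log2 ratio of 0.14 (-0.16 to 0.47) and Cacnb2 at -0.24 (-0.69 to 0.23), although Cacnb2 was at 0.66 (0.15 to 1.25) without the WT nucleus and the adipocyte-transcript nuclei. Kcnab1, a beta subunit of voltage-gated potassium channels, was at 1026 CPM (66 UMIs) in WT against 410 CPM (86 UMIs) in the knockout. Of its WT UMIs 40 lay in 1 nucleus, and its log2 ratio turned from -1.33 to 0.25 (-0.38 to 0.96) without the WT nucleus and the adipocyte-transcript nuclei. Ryr2, a calcium release channel, had 17 UMIs in 6 WT and 11 UMIs in 4 knockout nuclei, at -2.31 (-3.57 to -1.15) and -1.66 without those nuclei. Kcnma1, the pore of the large-conductance potassium channel, was at 1711 and 854 CPM but stood higher still in the other nuclei (2437 and 2019 CPM). Piezo1, a stretch-gated channel, was the gene at least 2-fold higher, from 2 and 21 UMIs, with a log2 ratio of 1.40 that was 0.18 without those nuclei.

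Signalling that maintains mural cells was covered by a pair of lists, again read beside 17.7% of all genes higher and 5.28% lower. Of 7 measured genes of the Notch pathway other than Notch3, 2 were at least 2-fold higher and 1 lower. Notch3 itself was at 793 CPM in WT against 668 CPM in the knockout, a log2 ratio of -0.26 (-0.72 to 0.24). Maml2, a Notch coactivator, was at 404 and 978 CPM (1.25, 0.68 to 1.92), and Rbpj, the DNA-binding partner of Notch, at 389 and 143 CPM (-1.45, -2.26 to -0.61), while the other nuclei gave 1.01 and 0.17. Of 19 measured genes of Pdgf, Tgfb and related signalling 3 were at least 2-fold higher and 1 lower, with a median of 0.13 that was -0.13 with median-of-ratios scaling. Smad3, which carries Tgfb signals to the nucleus, had 3 UMIs in WT and 47 UMIs in 26 knockout nuclei (2.06, 0.63 to 4.59), with -0.29 in the other nuclei.

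The vessel basement membrane gave 13 measured genes, of which 2 were at least 2-fold higher and 1 lower (17.7% and 5.28% of all genes), with a median of 0.18 that was -0.08 with median-of-ratios scaling and 0.82 in the other nuclei. Col4a1 and Col4a2, the main collagen IV chains, were at 420 and 334 CPM and at 358 and 301 CPM. Egflam, pikachurin, a dystroglycan ligand, was at 140 and 272 CPM. Of 20 measured integrin and adhesion genes 3 were at least 2-fold higher and 1 lower, near the same shares of all genes (17.7% and 5.28%), with a median of 0.22 that was -0.03 with median-of-ratios scaling. Cdh2, N-cadherin, which joins pericytes to endothelium, had 1 UMI in WT and 25 UMIs in 16 knockout nuclei, against a log2 ratio of -0.73 in the other nuclei. Of 6 measured fibrogenic genes 2 were at least 2-fold higher and none lower. Postn, periostin, a matrix protein of activated stroma, had 1 UMI in WT and 29 UMIs in 14 knockout nuclei, none of them adipocyte-transcript nuclei.

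Transcription factors of smooth muscle gave 12 measured genes of 22, of which 3 were at least 2-fold higher and none lower (17.7% and 5.28% of all genes), with a median of 0.57 beside 0.51 in the other nuclei; without the adipocyte-transcript nuclei 1 of 10 was higher and 1 lower. Immediate early genes and genes of interferon and inflammation were mostly below the filter, with 2 of 21 and 1 of 36 measured. Of the marker lists of other cells, adipocyte markers were at least 2-fold higher for 7 of 8 measured genes, and myonuclear markers at least 2-fold lower for 5 of 11.

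Among genes of the caveola itself 4 of 13 were measured, with a median log2 ratio of -0.13 in mural nuclei and 1.19 in the other nuclei. Cav1, the main caveolin outside striated muscle, was at 124 CPM (8 UMIs in 5 nuclei) in WT against 353 CPM (74 UMIs in 23 nuclei) in the knockout, a log2 ratio of 1.43 (0.45 to 2.77). Of these UMIs 4 in WT and 59 in the knockout lay in adipocyte-transcript nuclei, and without them the log2 ratio was 0.45 (-1.07 to 2.63). Cavin2 had 5 and 18 UMIs, and Cav2 and Ehd2 had 0 and 3 and 2 and 13. Without the adipocyte-transcript nuclei 2 caveola genes, Cav1 not among them, still had 20 UMIs, and neither differed by 2-fold or more. Of all genes in that set 15.4% were at least 2-fold higher and 4.69% at least 2-fold lower.

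Ranked over all measured genes, the highest ratios belonged mostly to adipocyte-transcript nuclei. Acaca, acetyl-CoA carboxylase, the first enzyme of fatty acid synthesis, had 3 UMIs in WT and 339 in knockout mural nuclei, of which 302 lay in those nuclei, and its log2 ratio of 4.90 was 2.09 (0.64 to 4.64) without them. Elovl6, a fatty acid elongase, had 77 of 80 knockout UMIs there and Pde3b, a phosphodiesterase of fat cells, 136 of 143. Most knockout UMIs lay there for Fgf14 (94 of 106), Tspan18 (99 of 102), Rgs7 (110 of 118), Svep1 (41 of 47), Fam13a (137 of 163), Prkar2b (99 of 107) and Rin2 (25 of 40). Of the 47 genes named by rank here and below, 26 share their strand and part of their span with another annotated gene.

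Adgrl3, an adhesion G protein-coupled receptor, was the exception among the highest ranked. It had 1 UMI in WT (15.6 CPM) and 58 UMIs in 18 knockout nuclei (277 CPM), of which 4 were in adipocyte-transcript nuclei, and its log2 ratio of 3.58 (1.62 to 9.48) was 3.85 without those nuclei. In the other nuclei it went the other way, at 43.0 CPM in WT against 9.47 CPM in the knockout (-2.18). Adgrl3 overlaps 3 other annotated genes on its own strand, so part of its UMIs is of uncertain origin. Of its 58 knockout UMIs 41 lay in pericyte-led nuclei, which were a larger part of the knockout members. How much of its ratio goes with that was not tested.

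At the low end stood Flna, Acta2, Sorbs2 and Dgkb, together with Fat3, Tshr, Ryr2, Fras1, Tmem233, Tnnt3 and Kcnn2. Dgkb, a diacylglycerol kinase, was at 1400 CPM in WT against 568 CPM in the knockout (-1.30). Within smooth-muscle-led nuclei without the WT nucleus rich in Myh11 it was at -0.39 (-0.92 to 0.16). Over all members it was at -0.51 (-0.97 to -0.03) without that nucleus and the adipocyte-transcript nuclei. Fat3, an atypical cadherin, had 16 UMIs in 11 WT and 8 UMIs in 4 knockout nuclei and was little moved by leaving those nuclei out (-2.66 and -2.75). Tshr had 18 of its 20 WT UMIs in 1 nucleus, an adipocyte-transcript one. Tnnt3, fast troponin T of muscle fibres, was at -1.95 beside -1.70 in the other nuclei.

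The smooth-muscle-led and pericyte-led nuclei also differed in genes that did not define them. Ranks were taken over both libraries pooled, since WT had 12 pericyte-led nuclei with 10895 UMIs. The knockout gave 58433 of the pericyte-led UMIs and 76703 of the smooth-muscle-led UMIs, the latter beside 40736 from WT, so the pooled contrast is partly one between genotypes, and values are given per library. Over the pool 236 of 1863 measured genes (12.7%) stood at least 2-fold higher in the smooth-muscle-led nuclei.

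Genes on the smooth muscle side, other than Csmd1, had the higher level on that side in each library. For Ostn WT cannot show a side, with 1 UMI in smooth-muscle-led and 0 in pericyte-led nuclei. Acta2 was at 712 CPM in smooth-muscle-led and 367 CPM in pericyte-led nuclei of WT (29 and 4 UMIs), and at 299.9 and 17.1 CPM in the knockout (23 and 1 UMIs). Without the WT nucleus rich in Myh11 the WT smooth-muscle-led level of Acta2 was 425 CPM (16 UMIs), close to the pericyte-led one. Itga8, the alpha 8 integrin of vascular smooth muscle, had 10 UMIs in WT and 16 in knockout smooth-muscle-led nuclei and 0 in all pericyte-led nuclei. Olfr78, an olfactory receptor gene known from vascular smooth muscle, had 8 and 12 against 0, and Myocd 11 and 5 against 0. Thsd4, a matrix protein of microfibrils, had 29 UMIs in WT and 39 in knockout smooth-muscle-led nuclei, against 0 and 4 UMIs in pericyte-led ones. Adamtsl1, Adcy5, Kcnab1, Csmd1, Ostn and Ryr2 also ranked among the highest. Without the WT nucleus rich in Myh11, WT smooth-muscle-led UMIs fell from 19 to 3 for Adcy5 and from 62 to 22 for Kcnab1. A single nucleus held 57 of 67 WT UMIs of Adamtsl1, 49 of 59 knockout UMIs of Csmd1 and 20 of 26 knockout UMIs of Ostn, and Csmd1 in WT was at 147 CPM in smooth-muscle-led and 184 CPM in pericyte-led nuclei.

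On the pericyte side most UMIs came from the knockout. Grk5, a kinase that turns off G protein-coupled receptors, was at 143 CPM in smooth-muscle-led and 1335 CPM in pericyte-led nuclei of the knockout, but had 2 and 1 UMIs in WT. Eps8, an actin-capping protein, was at 117 and 1095 CPM in the knockout and had 2 and 4 UMIs in WT. Postn and Scd1 had 0 UMIs in either class of WT, and Steap4 had 2 and 0. Of the 53 Scd1 UMIs in knockout mural nuclei 34 lay in adipocyte-transcript nuclei, of which 1 was pericyte-led. Chn1 and Zfp804b ranked here too, with 3 and 6 UMIs in WT pericyte-led nuclei. Pdgfrb was on the pericyte side in both libraries, at 147 and 1101 CPM in WT and 130.4 and 616 CPM in the knockout. Abcc9 was on it in the knockout, at 522 and 1660 CPM. In WT it was at 565 and 459 CPM, but the 12 WT pericyte-led nuclei held only 10895 UMIs, so its side there is uncertain. Cacna1c was higher in pericyte-led than in smooth-muscle-led nuclei of the knockout, at 1252 and 3987 CPM. In WT it differed little, at 1817 and 2203 CPM from 74 and 24 UMIs.

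Grk5 and Eps8, 2 of these pericyte-side genes, also stood higher in the knockout library. Grk5 was at 93.3 CPM (6 UMIs in 6 nuclei) in WT against 539 CPM (113 UMIs in 43 nuclei) in the knockout, a log2 ratio of 2.42 (1.36 to 4.01) that was 2.97 without the adipocyte-transcript nuclei and 1.17 in the other nuclei. Eps8 was at 171 CPM (11 UMIs) and 501 CPM (105 UMIs), at 1.49 (0.65 to 2.60), against 0.19 in the other nuclei. Neither gene was particular to mural nuclei. Nuclei led by the opposing genes held a Grk5 UMI in 17.9% in WT and 36.5% in the knockout, beside 12 and 43% of mural nuclei. For Eps8 these shares were 15.6 and 23.5%, beside 16 and 42%. Pericyte-led nuclei were also a larger part of the knockout members, and how much of the Grk5 and Eps8 ratios goes with that was not tested.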

How the data were processed

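Nuclei of quadriceps, 1 library per genotype, were sequenced as 10x 3' libraries. The deposited files hold UMI counts per gene and barcode; per the file headers, the authors made them with Cell Ranger 6.0.0. Also named, in the submitters' processing notes, are STAR, Seurat 4.1.1 and the mouse build mm10 (GRCm38). Annotation release, treatment of introns and strand, and barcode calling are each not given in sources used here.

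Counts were summed over mural nuclei of a library and divided by their summed UMIs (CPM). Ratios used 0.5 UMI added to each sum, over genes with at least 20 UMIs. Intervals are exact Poisson, conditional binomial or Clopper-Pearson. Nuclei are not replicates, so no test was made, and with 1 library per genotype no error between mice is known. Depth was compared by thinning to 500 UMIs. Doublets were neither called nor removed. Coordinates and strands are those of GENCODE M21, which 52093 of 53700 features matched by identifier. Genes named are the members of 24 gene lists and those ranked by whichever interval bound lies closest to equality: 8 and 6 per direction between genotypes, 12 against other nuclei, and 8 per direction between smooth-muscle-led and pericyte-led nuclei. Ranks skipped the rule genes, Xist, Y-linked genes, and any gene that was predicted, mitochondrial, ribosomal or for haemoglobin. X-linked genes such as Flna could still be ranked. A few genes that met these rules are not reported here. Members and lists were chosen with earlier results of these data known. The ratio code was tested on simulated data. The closing section gives 19 alternatives. Software was Python 3.11.15, numpy 2.4.6, scipy 1.17.1, pandas 2.3.3 and matplotlib 3.10.9.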

Additional observations from a re-analysis of the deposited data

How the results depend on the processing

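Under 19 alternatives, 257 of 308 recomputed values moved by less than their counting interval, a log2 median shift of 0.5 or a count ratio of 1.5, 50 moved by more and 1 reversed. Leaving out the adipocyte-transcript nuclei, the WT nucleus rich in Myh11 or both, leaving Myh11 and Lmod1 or Cspg4 out of the rule, and using either led class alone were chosen after seeing the data. The share ratio of 2.65 was 1.69 among nuclei with at least 500 genes and 1.46 among nuclei with Y-linked and no Xist transcripts. The smooth muscle log2 ratio of -1.81 was -1.29 after thinning, -1.04 without the WT nucleus, and -0.70 without that nucleus and the adipocyte-transcript nuclei, where the smooth muscle share differed by -24.0 in place of -34.3 percentage points. The 476 genes at least 2-fold higher were 270 with at least 3 mural UMIs, 73 after thinning, 109 in Y-linked nuclei, 900 with at least 10 UMIs per gene, 157 with at least 50, 2303 with at least 1, 311 without adipocyte-transcript nuclei, 310 without these and the WT nucleus, 151 in smooth-muscle-led and 154 in pericyte-led nuclei. The 142 genes at least 2-fold lower were 39 after thinning, 56 in Y-linked nuclei, 261 with median-of-ratios scaling, 375, 50 and 3629 with at least 10, 50 and 1 UMIs per gene, 87 without the adipocyte-transcript nuclei and the WT nucleus, 58 in smooth-muscle-led and 50 in pericyte-led nuclei. The pericyte list median of 0.57 was 1.72 in Y-linked nuclei. The contractile list median of -0.96 was -0.13 after thinning, -0.45 with at least 50 UMIs per gene, -0.34 without the WT nucleus, -0.044 without that nucleus and the adipocyte-transcript nuclei, -0.20 in smooth-muscle-led and -0.12 in pericyte-led nuclei. The adipocyte marker median of 2.24 was -0.14 in smooth-muscle-led and 3.95 in pericyte-led nuclei, 0.66 with at least 3 mural UMIs, 0.83 in Y-linked nuclei, 1.34 without adipocyte-transcript nuclei and 1.26 without these and the WT nucleus. Fewer nuclei or UMIs leave fewer genes past the filter; beyond that the cause was not tested. For a gene at 0 in WT, the floor of 3 UMIs is 46.65 CPM and the exact upper limit 57.36 CPM (as for Rin2). No paired analysis was possible because each genotype has 1 library and no replicate numbers, and no replicate could be left out.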

Other observations

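Transcripts of further cell types were counted in the mural nuclei. Macrophage markers summed to 466 CPM (30 UMIs) in WT and 339 CPM (71 UMIs) in the knockout, beside 229.7 and 243 CPM in the other nuclei. Markers of fibro-adipogenic cells summed to 404 CPM (26 UMIs) in WT and 320 CPM (67 UMIs) in the knockout, beside 244 and 322 CPM in the other nuclei. Schwann cell markers had 8 and 19 UMIs, satellite cell markers 10 and 23, lymphatic markers 6 and 1, and lymphocyte markers 7 and 1. Ndufa4l2, a mitochondrial protein known from pericytes, had 2 UMIs in WT and 9 in knockout mural nuclei and 0 in the other nuclei of both libraries. Split by gene length into 4 equal classes, the median log2 ratios of knockout to WT mural nuclei were 0.15, 0.21, 0.20 and 0.22 from the shortest to the longest genes.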
